A study of Mus musculus with 9 samples.

Results

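Transcripts of 10 leukocyte integrin genes were compared in B cells of the bone marrow (BM) and in peritoneal macrophages (PMs). The genes were Itgam, Itgax, Itgal, Itgad, Itgb2, Itga4, Itgb7, Itgb1, Itga6 and Itgb3, found by name among the 55322 genes of the deposited expression table. Each name matched 1 gene. The libraries came from wild-type C57BL/6 mice and formed 3 groups of 3. B cells with and without surface CD11b (CD11b+ and CD11b- B cells) were sorted from BM taken 48 h after an intraperitoneal injection of LPS at 5 mg/kg, after cells that stained for TER119, Gr-1, NK1.1, CD3, CD4 or CD8 were removed. PMs were CD11b+F4/80+ cells of the peritoneal cavity of naive mice, so tissue and LPS treatment cannot be told apart from cell type in any comparison with PMs. The labels do not say that the libraries of a group came from separate mice, whereas the study's methods keep SD, which it drew for RNA-sequencing values, for biological replicates. The p-values measure only the spread between these libraries.

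Integrins are adhesion receptors made of 1 α and 1 β subunit, and both are needed for the pair to reach the cell surface. On leukocytes β2 (Itgb2) pairs with αL (Itgal) as LFA-1, with αM (Itgam, the CD11b protein) as Mac-1 or complement receptor 3, with αX (Itgax, CD11c) and with αD (Itgad). LFA-1 binds the ICAMs, and Mac-1 also binds complement fragments and fibrinogen. The α4 subunit (Itga4) pairs with β1 (Itgb1) as VLA-4, a receptor of VCAM-1 and fibronectin that holds B cell precursors in the BM, or with β7 (Itgb7) as the gut homing receptor of MAdCAM-1. α6 (Itga6) with β1 binds laminins, and β3 (Itgb3) pairs with αv and, in platelets, with αIIb. CD11b protein was the marker on which all 3 groups were sorted, so Itgam is the gene of the sort marker and its RNA is no independent sign of the sort. In bulk RNA, fewer expressing cells and less RNA per cell cannot be told apart.

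Levels are given as FPKM, the reads on a gene per exon length and per read total of the library, which allows levels of different genes to be compared. Depth ran from 18014658 to 35251215 reads on genes per library and was lowest in a PM library. A list of 9 B cell markers (Ms4a1, Cd79a, Pax5 and others) summed to 11547 to 13422 FPKM in CD11b- and 11719 to 15071 FPKM in CD11b+ B cells, against 124 to 227 FPKM in PMs. Ighm had the highest mean of the list, at 5876 FPKM in CD11b- and 7598 FPKM in CD11b+ B cells. Only 2 of the 9, Ighm and Pax5, had a higher mean in CD11b+ than in CD11b- B cells. Cd79a, Cd79b, Ebf1 and Cd22 were lower in CD11b+ B cells without overlap. The 12 monocyte and macrophage markers (Adgre1, Csf1r, Lyz2 and others) summed to 24232 to 61464 FPKM in PMs. No marker of either list was at 0 in any group.

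The genes Itgal, Itgam, Itgax and Itgad all lie on chromosome 7, and the last 3 lie close together in this order on the plus strand. In GENCODE M21 (GRCm38), Itgam (ENSMUSG00000030786) spans chr7:128062640-128118491, Itgax (ENSMUSG00000030789) spans chr7:128129547-128150657 and Itgad (ENSMUSG00000070369) spans chr7:128154376-128223816, while Itgal (ENSMUSG00000030830) lies at chr7:127296260-127335138. The other members are scattered. Itgb2 (ENSMUSG00000000290) is at chr10:77530252-77565708, Itga4 (ENSMUSG00000027009) at chr2:79255426-79333123, Itga6 (ENSMUSG00000027111) at chr2:71745616-71858416, Itgb7 (ENSMUSG00000001281) at chr15:102215995-102231944 on the minus strand, Itgb1 (ENSMUSG00000025809) at chr8:128685654-128733200 and Itgb3 (ENSMUSG00000020689) at chr11:104608000-104670476. All 10 are protein coding genes.

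RefSeq promoters (GRCm38.p6) were matched for 5 of the 10 members, and 4 are shown: the neighbours Itgam and Itgax, whose levels in PMs were far apart, and the partners Itga4 and Itgb1, of which the first differed little between groups and the second strongly between PMs and B cells. Each is the 250 bases before the start site, 5′ to 3′ on the strand of the gene, which is the plus strand for all 4. Capitals mark a purine-rich box (GAGGAA, the core bound by PU.1 and other ETS factors) or a GC box (GGGCGG, bound by SP1), searched on both strands together with the TATA box TATAAA.
Itgam, chr7:128062390-128062639: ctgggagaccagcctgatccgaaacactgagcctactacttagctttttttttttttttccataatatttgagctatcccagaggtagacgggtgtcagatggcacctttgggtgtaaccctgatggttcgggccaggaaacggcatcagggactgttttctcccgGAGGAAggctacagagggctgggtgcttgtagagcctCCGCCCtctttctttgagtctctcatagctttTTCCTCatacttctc
Itgax, chr7:128129300-128129549: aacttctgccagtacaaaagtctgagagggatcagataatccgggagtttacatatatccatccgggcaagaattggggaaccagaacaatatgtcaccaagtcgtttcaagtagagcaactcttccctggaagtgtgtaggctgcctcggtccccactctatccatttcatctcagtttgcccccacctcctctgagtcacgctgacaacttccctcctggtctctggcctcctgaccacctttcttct
Itga4, chr2:79255176-79255425: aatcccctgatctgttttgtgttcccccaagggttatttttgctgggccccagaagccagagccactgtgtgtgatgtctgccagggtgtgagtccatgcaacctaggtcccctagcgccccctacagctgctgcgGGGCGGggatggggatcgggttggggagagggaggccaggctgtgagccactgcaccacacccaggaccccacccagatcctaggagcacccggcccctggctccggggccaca
Itgb1, chr8:128685404-128685653: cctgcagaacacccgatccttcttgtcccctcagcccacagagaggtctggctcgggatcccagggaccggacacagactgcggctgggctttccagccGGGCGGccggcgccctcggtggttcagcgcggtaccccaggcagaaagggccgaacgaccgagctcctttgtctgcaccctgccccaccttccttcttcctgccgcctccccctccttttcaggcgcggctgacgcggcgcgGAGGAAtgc

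The Itgam window held GAGGAA at base 167 and, read on the other strand, at base 236, and GGGCGG on the other strand at base 204, counted from 1 at the 5′ end. The Itgb1 window held GAGGAA at base 242 and GGGCGG at base 100, and the Itga4 window held GGGCGG at base 137. None of the 3 motifs was in the Itgax window, nor in that of Itgb7 (chr15:102231936-102232185, minus strand). Of 32851 RefSeq promoter windows of 250 bases, 23.3% held GAGGAA, 32.7% GGGCGG and 12.4% TATAAA on either strand, so these motifs are common. The GC content was 49.6% for Itgam, 64.0% for Itga4 and 68.0% for Itgb1, against a median of 52.4% over all windows. The letters describe the windows only and say nothing of what binds there.

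**Figure D1:**
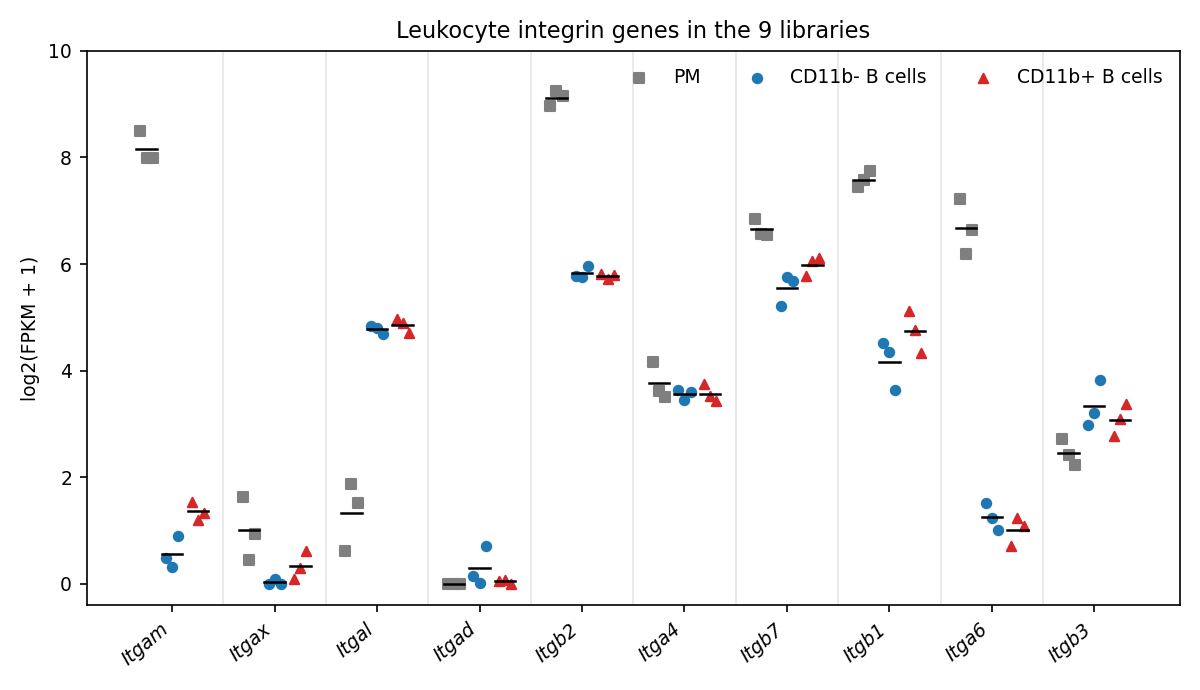
Levels of the 10 integrin genes as log2(FPKM + 1). Each point is 1 library (squares, PMs; circles, CD11b- B cells; triangles, CD11b+ B cells; 3 libraries per group), and bars are group means. PMs lie apart from both B cell groups for Itgam, Itgal, Itgb2, Itgb1 and Itga6, while the B cell groups lie close together for most genes.

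Among the β2 partners, Itgam had the highest level in PMs. Its level in PMs was 358, 254 and 251 FPKM in replicates 1, 2 and 3. It was 0.40, 0.251 and 0.869 FPKM in CD11b- B cells and 1.92, 1.31 and 1.51 FPKM in CD11b+ B cells. The 3 groups did not overlap: every CD11b+ library was above every CD11b- library, and both were far below every PM library. In rank of mean level, Itgam was 173rd of 22139 genes with a read in PMs, 13484th of 28671 in CD11b- and 10949th of 34551 in CD11b+ B cells. The mean in CD11b+ B cells was 0.548% of the PM mean, and that in CD11b- B cells 0.176%, or 0.113% without CD11b- replicate 3. These levels rested on 67, 44 and 140 reads in the CD11b- libraries and 283, 172 and 267 reads in the CD11b+ libraries, against 25486 to 37294 in PMs.

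The mean Itgam level in the CD11b+ group was thus 3.11 times that in the CD11b- group, and 4.85 times without CD11b- replicate 3. In limma on log2(FPKM + 1), whose added 1 shrinks the change of low genes, the log2 fold change was 0.79 (95% interval 0.22 to 1.35), with an unadjusted p of 0.0123 and a Benjamini-Hochberg adjusted p of 0.50 over 21778 genes. With pseudocounts of 0.1 and 0.01 it was 1.58 and 1.79. The adjusted p ranged from 0.0562 (DESeq2) to 0.830 over 20 alternatives, so the difference in sign held in all of them and the test was passed in none. Against PMs, Itgam was lower in both B cell groups, with log2 fold changes of -6.79 ± 0.21 (SE; limma adjusted p = 6.75e-07) for CD11b+ and -7.58 ± 0.23 (adjusted p = 6.75e-07) for CD11b- B cells. The gene Gm49368 overlaps Itgam on the same strand. It held 20 to 77 reads in the PM libraries and 0 or 1 in the B cell libraries. The treatment of reads that fall on both genes is not stated, so any sharing could not be measured.

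Markers of monocytes and macrophages were, like Itgam, higher in mean in CD11b+ than in CD11b- B cells. The mean of all 12 was higher in the CD11b+ group, 9 of them without overlap, and their summed level was 40.4 to 57.5 FPKM in CD11b- and 117 to 317 FPKM in CD11b+ B cells. Of all 21778 genes tested, 8.63% were higher in CD11b+ B cells without overlap, which is the background of each marker list here. As a percentage of the PM mean, the 12 markers ranged from 0.201% to 4.49% in CD11b+ B cells with a median of 0.897%, and their median in CD11b- B cells was 0.0954%. The 0.548% of Itgam lay inside the CD11b+ range. All 11 neutrophil markers (S100a8, S100a9, Ngp and others) were also higher, 10 without overlap, at 1.77 to 3.02 FPKM summed in CD11b- and 215 to 1546 FPKM in CD11b+ B cells, against 13.8 to 30.6 FPKM in PMs, where Ly6g was at 0. Within the CD11b+ group, Itgam was highest in replicate 1 and lowest in replicate 2. Lyz2, the highest of the 12 monocyte and macrophage markers there, was at 261, 240 and 65.4 FPKM in replicates 1, 2 and 3. S100a9, the highest of the 11 neutrophil markers, was at 221, 545 and 74.5 FPKM, so neither shared the order of Itgam. All 5 markers of age-associated and B1 B cells (Tbx21, Cd5, Zbtb32, Fcrl5 and Bhlhe41), B cell subsets that can carry CD11b, were higher without overlap as well, at 7.842 to 20.51 against 40.8 to 83.7 FPKM summed. Tbx21 was at means of 0.871 against 3.33 FPKM and Cd5 at 0.364 against 0.530 FPKM. By protein staining, the study found high IgD and no CD5 on most CD11b+ B cells, and no CD11c. It found no Tbx21 in them by quantitative PCR, and set them apart from both subsets. The sums of erythroid and of T and NK cell markers did not overlap either, although in each list only 1 gene was higher without overlap. For the 10 T and NK cell markers this is close to the 8.63% of all genes. The 6 erythroid markers, 5 of them higher in mean, summed to 1.35 to 20.996 FPKM in CD11b- and 27.97 to 38.5 FPKM in CD11b+ B cells, mostly from the globin genes Hbb-bs and Hba-a1. The 10 T and NK cell markers, 9 of them higher in mean, summed to 0.0614 to 2.66 FPKM, with Cd4, Cd8a, Ncr1 and Gzma at 0, and to 2.91 to 5.30 FPKM, with Klrb1c at 0. The 6 markers of conventional dendritic cells overlapped, at 0.713 to 2.47 and 1.93 to 2.17 FPKM. The number of genes with a read was also higher in each CD11b+ library, at 23767 to 27321 against 21128 to 22882. The part of these cells and of the number of genes detected in the Itgam level was not tested.

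**Figure D2:**
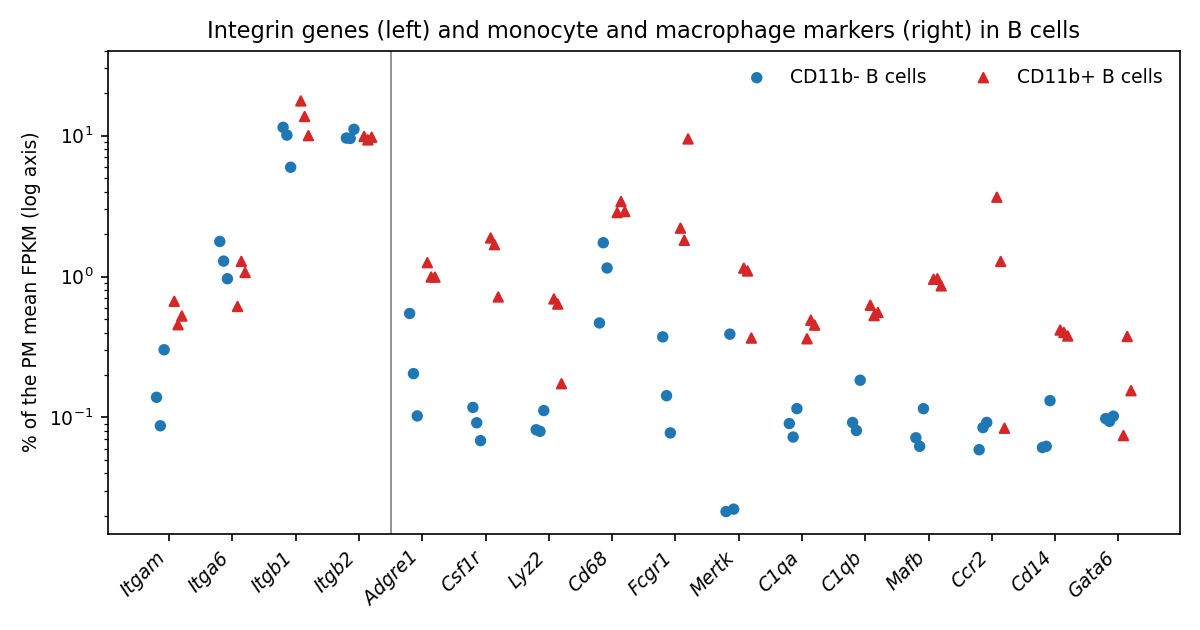
Levels in B cells as a percentage of the mean level in PMs, on a log axis, for 4 integrin genes (left of the line) and the 12 monocyte and macrophage markers (right). Each point is 1 library (circles, CD11b- B cells; triangles, CD11b+ B cells). Itgb2 and Itgb1 stand near 10% in both groups, with group means between 9.16% and 13.8%, while Itgam and most markers stand near or below 1%.

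The next gene on chromosome 7, Itgax, was low in every group. Its levels were 2.12, 0.356 and 0.918 FPKM in PMs. They were 0, 0.0716 and 0 FPKM in CD11b- B cells and 0.0638, 0.231 and 0.532 FPKM in CD11b+ B cells. The 12 reads of the CD11b- group all came from 1 library, and the CD11b+ libraries held 9, 29 and 90 reads, so the 11.5-fold difference in means rested on very few reads. It was 6.17-fold without CD11b+ replicate 3, and without CD11b- replicate 2 the CD11b- group had no read. The B cell groups overlapped by 1 library, and the log2 fold change of 0.30 (95% interval -0.05 to 0.66) did not pass (adjusted p = 0.681). Against PMs, Itgax was lower in CD11b- B cells (log2 fold change -0.97 ± 0.30, adjusted p = 0.0396), a call that held in 13 of 18 alternatives. It was lost with no filter on FPKM (0.0980), without PM replicate 3 (0.0750) and without CD11b- replicate 1, 2 or 3 (0.121, 0.104 and 0.114). Itgax did not pass for CD11b+ B cells (-0.67 ± 0.34, adjusted p = 0.177), except with DESeq2 (0.0232) and on the normalized counts (0.0369).

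For Itgad, PMs had no read in any library. The level in CD11b- B cells was 0.106, 0.0127 and 0.636 FPKM (16, 2 and 92 reads), and in CD11b+ B cells 0.0453, 0.0593 and 0 FPKM (6, 7 and 0 reads). Since 0 observed reads still allow 3 over the PM libraries together, the observed CD11b- mean was at least 25.5-fold above this PM limit, and at least 6.03-fold without CD11b- replicate 3. The observed CD11b+ mean was 3.53-fold above the PM limit, and 2.29-fold without CD11b+ replicate 2. These folds cover counting error in PMs only and not the spread of the few B cell reads. The CD11b+ libraries overlapped PMs, with p = 0.4 in the exact permutation test, so no difference was shown for them. In limma the log2 fold change was 0.29 ± 0.19 for CD11b- B cells against PMs (adjusted p = 0.270, but 0.0223 in DESeq2) and -0.24 ± 0.18 for CD11b+ against CD11b- B cells (adjusted p = 0.727). Cox6a2, which lies within Itgad on the opposite strand, was also highest in CD11b- replicate 3, with 173 reads against 26 and 8 in the other CD11b- libraries. The CD11b+ libraries held 38, 8 and 110 Cox6a2 reads beside their 6, 7 and 0 Itgad reads, so replicate 3 was highest for Cox6a2 and at 0 for Itgad. How strand was treated in the counting is not given here, so reads of this pair may not be told apart.

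The opposite pattern was seen for Itgal. LFA-1 is the β2 integrin of lymphocytes, and Itgal stood at 27.7, 27.0 and 24.9 FPKM in CD11b- and 30.3, 28.9 and 25.3 FPKM in CD11b+ B cells, but at 0.532, 2.67 and 1.85 FPKM in PMs. All 6 B cell libraries were above all PM libraries, and the B cell groups overlapped. The log2 fold change against PMs was 3.53 ± 0.34 for CD11b+ (adjusted p = 0.000164) and 3.45 ± 0.33 for CD11b- B cells (adjusted p = 0.000189), from means 16.7-fold and 15.7-fold higher. Between the B cell groups it was 0.08 with a 95% interval of -0.22 to 0.38 (adjusted p = 0.838).

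The common partner, Itgb2, was at 495, 609 and 566 FPKM in PMs, the highest member there and 78th in rank among all genes. It was at 53.5, 53.1 and 61.7 FPKM in CD11b- and 54.9, 51.9 and 54.2 FPKM in CD11b+ B cells, close to 10% of the PM level in both (10.1% and 9.64% of the mean). Itgb2 was lower than in PMs, with log2 fold changes of -3.35 ± 0.18 in CD11b+ (adjusted p = 7.57e-06) and -3.29 ± 0.16 in CD11b- B cells (adjusted p = 5.74e-06). Between the B cell groups the log2 fold change was -0.06 (95% interval -0.34 to 0.22, adjusted p = 0.874).

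Added up, the 4 α genes showed how the partners of β2 were divided. In PMs, Itgam made up 98.8% to 99.3% of the summed FPKM of Itgal, Itgam, Itgax and Itgad. In CD11b- B cells, Itgal made up 94.3% to 98.8% and Itgam 0.917% to 3.29%. In CD11b+ B cells, Itgal still made up 92.5% to 94.8%, and Itgam 4.29% to 5.93%. The share of Itgam was higher in each CD11b+ library than in each CD11b- library, yet Itgal was the main α transcript in all 6. The summed α level per Itgb2 FPKM overlapped between all 3 groups, with 0.728, 0.422 and 0.449 in PMs, 0.527, 0.515 and 0.428 in CD11b- and 0.589, 0.587 and 0.504 in CD11b+ B cells.

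**Figure D3:**
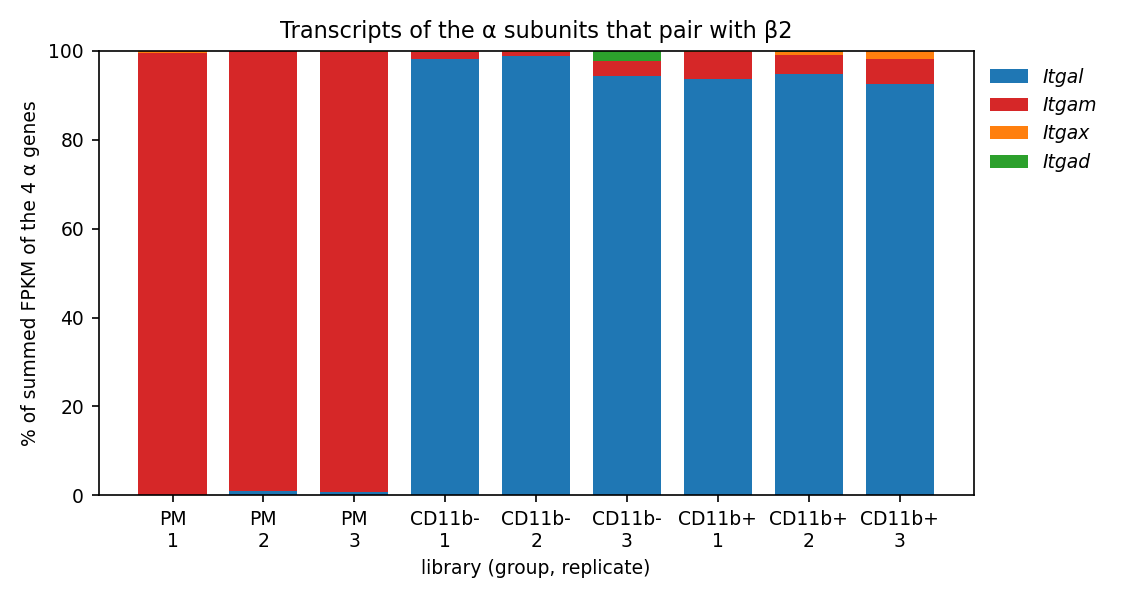
Shares of the α subunits that pair with β2 in their summed FPKM, in each of the 9 libraries (bars; 3 per group). Itgam fills at least 98.8% of the PM bars and Itgal at least 92.5% of the B cell bars, with Itgam at 4.29% to 5.93% in the CD11b+ and 0.917% to 3.29% in the CD11b- libraries.

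Itga4, which VLA-4 and α4β7 share, differed little between groups. The levels were 17.0, 11.3 and 10.4 FPKM in PMs, 11.4, 9.92 and 11.1 FPKM in CD11b- and 12.4, 10.6 and 9.84 FPKM in CD11b+ B cells. All 3 groups overlapped, and the means in B cells were 84.0% and 84.9% of that in PMs. Between the B cell groups the log2 fold change was 0.01 (95% interval -0.35 to 0.37, adjusted p = 0.987). Against PMs it was -0.19 (95% interval -0.75 to 0.36, adjusted p = 0.536) for CD11b+ and -0.20 (95% interval -0.72 to 0.31, adjusted p = 0.476) for CD11b- B cells. The latter became -0.69 (adjusted p = 0.0317) with median-ratio scaling and -0.70 (adjusted p = 0.0289) with quantile normalization, so whether Itga4 was called depended on how libraries were scaled. With DESeq2 both comparisons with PMs passed (0.0153 and 0.00271). Cerkl overlaps Itga4 on the opposite strand, at mean levels of 0.398 to 0.956 FPKM.

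Its partner Itgb7 had the highest mean of the members in CD11b+ B cells. It stood at 36.0, 53.4 and 50.04 FPKM in CD11b- and 53.9, 65.5 and 68.5 FPKM in CD11b+ B cells, and at 114, 93.2 and 92.3 FPKM in PMs. The 3 groups did not overlap, although the highest CD11b- library and the lowest CD11b+ library were nearly equal. The CD11b+ mean was 1.35 times the CD11b- mean, with a log2 fold change of 0.44 (95% interval 0.02 to 0.85), an unadjusted p of 0.0426 and an adjusted p of 0.644. Against PMs, Itgb7 was lower in CD11b- B cells by a log2 fold change of -1.10 ± 0.20 (adjusted p = 0.00407), a call that held in all 19 alternatives. For CD11b+ B cells it was -0.67 ± 0.19 (adjusted p = 0.0298), but this call was lost without PM replicate 1, 2 or 3 (0.0567, 0.0536 and 0.0553) and without CD11b+ replicate 1 or 2 (0.108 and 0.0809).

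Itgb1, the other partner of α4, was 172.7, 189 and 213 FPKM in PMs. In CD11b- B cells it was 21.95, 19.3 and 11.4 FPKM, and in CD11b+ B cells 33.8, 26.2 and 19.2 FPKM. The B cell groups overlapped, since the lowest CD11b+ library was below the highest 2 CD11b- libraries, and both groups were far below PMs. The CD11b+ mean was 1.5 times the CD11b- mean, with a log2 fold change of 0.57 (95% interval -0.07 to 1.21, adjusted p = 0.679). The log2 fold change against PMs was -2.85 ± 0.23 for CD11b+ (adjusted p = 7.21e-05) and -3.42 ± 0.25 for CD11b- B cells (adjusted p = 4.25e-05). Markers of plasma cells, the antibody-secreting stage of B cells, also had higher group means in CD11b+ B cells. All 5 (Sdc1, Prdm1, Tnfrsf17, Xbp1 and Jchain) were higher in mean, 2 without overlap, where 8.63% of all genes were higher without overlap. The 5 summed to 62.3 to 107 FPKM in CD11b- and 179.6 to 568 FPKM in CD11b+ B cells. Within each B cell group, replicate 3 had the highest plasma cell sum and the lowest Itgb1 level. Itgb7 was highest in replicate 3 of the CD11b+ and replicate 2 of the CD11b- group. The part of such cells in the Itgb1 and Itgb7 levels was not tested.

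Itga6, the laminin-binding partner of β1, was at 147, 71.5 and 98.6 FPKM in PMs. It was at 1.88, 1.36 and 1.02 FPKM in CD11b- and 0.648, 1.35 and 1.13 FPKM in CD11b+ B cells, which is 1.34% and 0.987% of the PM mean. Beside Itgam it was the member that differed most between PMs and B cells in limma on log2(FPKM + 1), with log2 fold changes of -5.66 ± 0.30 for CD11b+ (adjusted p = 6.29e-06) and -5.42 ± 0.29 for CD11b- B cells (adjusted p = 8.15e-06). Itgad, without a read in PMs, was at a log2 fold change of 6.55 in DESeq2 for CD11b- B cells. The B cell groups overlapped, and the log2 fold change between them was -0.24 (95% interval -0.84 to 0.36, adjusted p = 0.742).

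Itgb3, like Itgal and Itgad, had a higher mean in both B cell groups than in PMs. It was at 5.59, 4.36 and 3.695 FPKM in PMs, 6.89, 8.27 and 13.1 FPKM in CD11b- and 5.80, 7.54 and 9.41 FPKM in CD11b+ B cells. Neither B cell group overlapped PMs, and the B cell groups overlapped each other. The log2 fold change against PMs was 0.88 ± 0.28 for CD11b- B cells (adjusted p = 0.0422) and 0.62 ± 0.27 for CD11b+ B cells (adjusted p = 0.117). The call for CD11b- B cells was lost in 11 of 18 alternatives, among them median-ratio scaling (0.42, adjusted p = 0.289), quantile normalization (0.41, adjusted p = 0.292), and leaving out PM replicate 2 or 3 (0.0940 and 0.112) or CD11b- replicate 1, 2 or 3 (0.0518, 0.0983 and 0.116). Of the α subunits that pair with β3, Itgav was at means of 3.38, 2.7 and 2.75 FPKM in PMs, CD11b- and CD11b+ B cells. Itga2b, the platelet partner, was at 0.658, 0.0195 and 0.125 FPKM. A list of 9 megakaryocyte and platelet markers summed to 3.08 to 5.37 FPKM in CD11b- and 5.05 to 8.33 FPKM in CD11b+ B cells, with Gp1bb at 0 in both and Gp6 and Treml1 at 0 in CD11b- B cells. In PMs 6 of the 9 were at 0, and Pf4 gave nearly all of a sum of 2258 to 3290 FPKM.

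Over the 10 genes, none passed limma's test between CD11b+ and CD11b- B cells, where 0.0689% of 21778 genes passed. The tests of edgeR and DESeq2 called none of the 10 either. At an unadjusted p under 0.05 there were 2 members, Itgam and Itgb7, against 7.68% of all genes, and the same 2 were higher without overlap, against 8.63% of all genes. The median log2 fold change of the 10 was 0.04, and that of all genes tested 0.03. The exact permutation test of 3 against 3 libraries cannot give less than 0.1, and it gave 0.1 for Itgam and Itgb7. All 10 genes passed the filter of a mean of at least 0.05 FPKM in this comparison.

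Against PMs, 9 of the 10 were tested for CD11b+ B cells, since Itgad was below the filter. Itgal was higher and 5 were lower (Itgam, Itga6, Itgb2, Itgb1 and Itgb7), where 21.5% of all genes were called higher and 8.78% lower. For CD11b- B cells all 10 were tested. Itgal and Itgb3 were higher and 6 were lower, the same 5 and Itgax, where 25.8% of all genes were called higher and 11% lower. The median log2 fold change of the members was -0.67 and -1.04, against 0.25 and 0.24 over all genes tested. The 2 comparisons share the PM libraries. Of all calls against PMs, 71.0% were higher in CD11b+ and 70.1% higher in CD11b- B cells, and median-ratio scaling, which moved the median of all genes by -0.129 and -0.156, gave 53.3% and 52.4%. Quantile normalization gave 50.1% and 52.4%, with shifts of -0.186 and -0.178. The calls of Itgam, Itgal, Itgb2, Itgb1 and Itga6 against PMs held in all 19 alternatives in both comparisons.

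**Figure D4:**
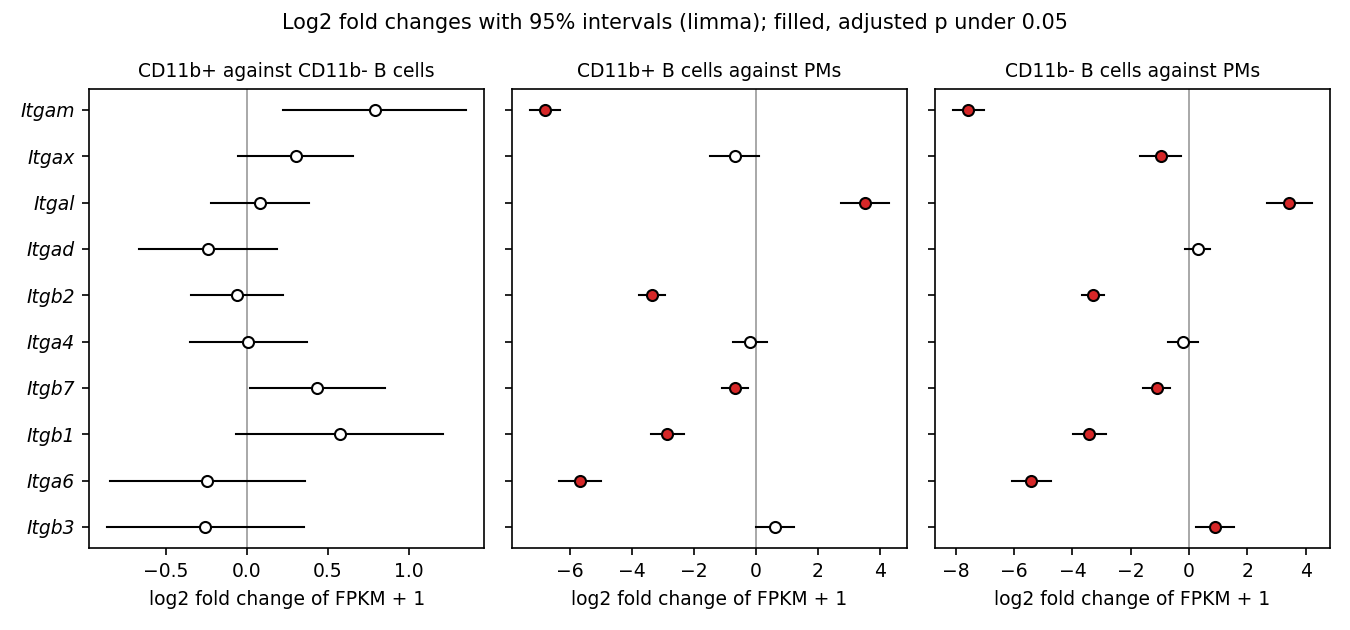
Log2 fold changes (limma, FPKM + 1) of the 10 genes in the 3 comparisons, with 95% intervals as lines; filled points have an adjusted p under 0.05, and Itgad has no point against PMs in CD11b+ B cells because it was not tested there. No point is filled between the B cell groups, where Itgam (0.79) and Itgb7 (0.44) are the genes whose interval does not reach 0; the axes differ between panels.

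Ratios of 2 subunits within a library do not depend on scaling between libraries. Itgam per Itgb2 was 0.528 ± 0.169 in PMs, 0.00876 ± 0.00481 in CD11b- and 0.0293 ± 0.00504 in CD11b+ B cells (mean ± SD, n = 3), and the B cell groups did not overlap, with a mean log2 difference of 1.87. Itga6 per Itgb1 was the only other ratio of the 7 tested between B cells without overlap, at 0.0817 ± 0.00999 in CD11b- and 0.0433 ± 0.0212 in CD11b+ B cells, a log2 difference of -1.07. Both gave p = 0.1 in the exact two-sided permutation test, the smallest it can give, and an adjusted p of 0.35 over the 7 ratios. Itgal per Itgb2 was 0.477 ± 0.0635 and 0.525 ± 0.0510 in CD11b- and CD11b+ B cells and overlapped.

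Itgb7 stood above Itgb1 in all 6 B cell libraries, at ratios of 1.64 to 4.38 in CD11b- and 1.597 to 3.57 in CD11b+ B cells. In all 3 PM libraries it stood below Itgb1, at 0.433 to 0.662. Of the partners of α4, β7 thus had the higher transcript level in B cells and β1 in PMs, and the B cell groups overlapped. Itga4 per Itgb1 was 0.0689 ± 0.0261 in PMs, 0.669 ± 0.265 in CD11b- and 0.428 ± 0.0762 in CD11b+ B cells, and the B cell ranges touched. Itgb3 per Itgb1 was 0.0242 ± 0.00759 in PMs, 0.629 ± 0.451 in CD11b- and 0.317 ± 0.161 in CD11b+ B cells, again with overlap between B cells.

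**Figure D5:**
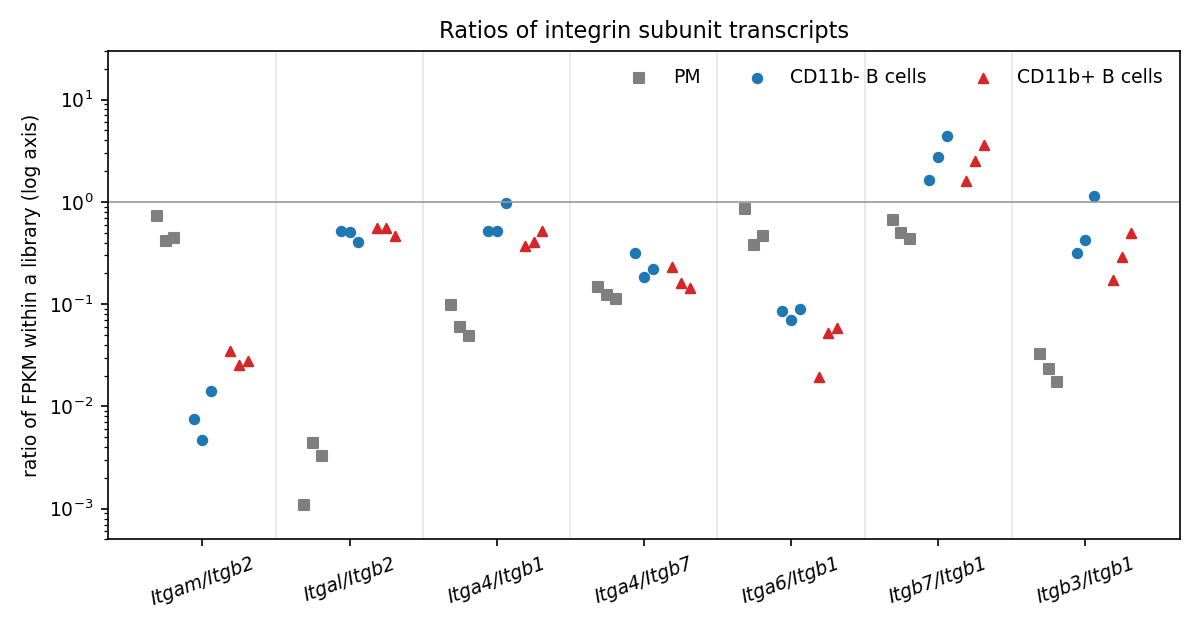
Ratios of the FPKM of 2 integrin genes within each library, on a log axis; the line marks equal levels. Squares are PMs, circles CD11b- and triangles CD11b+ B cells (3 libraries each). Itgam/Itgb2 and Itga6/Itgb1 separate the B cell groups (log2 differences of 1.87 and -1.07), and Itgb7/Itgb1 is above 1 in all B cell libraries and below 1 in all PM libraries.

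In order of mean level, PMs ran from Itgb2 over Itgam, Itgb1, Itga6, Itgb7, Itga4, Itgb3, Itgal and Itgax to Itgad. The neighbours Itga6 and Itgb7, and Itgal and Itgax, overlapped in this order. CD11b- B cells ran from Itgb2 over Itgb7, Itgal, Itgb1, Itga4, Itgb3, Itga6, Itgam and Itgad to Itgax, with overlap between Itgb2 and Itgb7, between Itga4 and Itgb3, and between neighbours from Itgam to Itgax. CD11b+ B cells ran from Itgb7 over Itgb2, Itgal, Itgb1, Itga4, Itgb3, Itgam, Itga6 and Itgax to Itgad, with overlap between Itgb7 and Itgb2, between Itgal and Itgb1, and between Itgam and Itga6. The β subunits β2 and β7 thus headed both B cell groups, and Itgam moved from second place in PMs to the last 4 in B cells.

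Genes near Itgam did not share its pattern in size. Within 150000 bases of it, Pycard, an inflammasome adaptor, was at means of 174, 20.4 and 25.1 FPKM in PMs, CD11b- and CD11b+ B cells. Kat8, a histone acetyltransferase, was at 8.54, 18.8 and 18.4 FPKM. The drop from PMs to B cells was thus shared by Pycard in direction but not by Kat8.

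The genes most like a member over the 9 libraries were found by the root mean square difference of log2(FPKM + 1) among 14218 genes. For Itgam they were Padi4 (0.36), 4930455G09Rik (0.38) and Timp2 (0.40). Those of Itgb2 were Prdx5 (0.23), Icam2 (0.31) and Hexa (0.34), and Icam2 encodes a ligand of LFA-1. Those of Itgb7 were Uqcrq (0.24), Uqcc3 (0.25) and Cox6c (0.25).

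The rest of the integrin system was described with 6 lists of 131 genes in the table. Between the B cell groups, 1 of 103 genes tested passed, higher in CD11b+ B cells, against 0.0689% of all genes. This gene was Fcer1g, the Fc receptor γ chain that carries an activating motif and passes signals from integrins in myeloid cells, at 43.3 against 1.71 FPKM with a log2 fold change of 4.02 ± 0.21 (adjusted p = 0.00115). At an unadjusted p under 0.05 there were 15 of the 103, against 7.68% of all genes. The median log2 fold change of the lists lay between -0.18 (outside-in signalling) and 0.09 (ligands), against 0.03 over all genes. They included Vcam1, the VLA-4 ligand, at 0.993 against 0.0380 FPKM (0.94, adjusted p = 0.126), and the complement gene C3, whose fragment iC3b binds Mac-1, at 2.09 against 0.0658 FPKM (1.49, adjusted p = 0.147). Fyb, an adaptor in integrin activation, was at 0.858 against 0.0204 FPKM (0.86, adjusted p = 0.134). With edgeR on the reads, C3 and Fyb passed (adjusted p = 0.00515 and 0.0188). With DESeq2 on the reads all 3 passed (1.29e-18 for C3, 8.57e-12 for Fyb and 9.10e-09 for Vcam1), and limma on the normalized counts gave 0.0165 for C3 and 0.0210 for Fyb. Limma in 1 fit of all 9 libraries gave 0.0186 for Vcam1, so the calls of these genes depended on the values and the fit. C3, Fyb and Fcer1g were at means of 60.4, 30.7 and 1499 FPKM in PMs, but Vcam1 was at 0.00186 FPKM there, and its level in CD11b+ B cells was above that (log2 fold change 0.99 ± 0.18, adjusted p = 0.00449). The macrophage and neutrophil markers given beside Itgam were higher in the same CD11b+ libraries, and their part was not tested.

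Among the other integrin subunits, 11 of 17 were tested between the B cell groups and none passed in limma, with none at an unadjusted p under 0.05. Itgb2l, a β2-like gene of neutrophils, was at 0.504, 1.94 and 0.0197 FPKM in CD11b+ and 0, 0.0199 and 0.0144 FPKM in CD11b- B cells. It was high in 2 of the 3 CD11b+ libraries and near 0 in the third (0.71, limma adjusted p = 0.679, and 0.000491 in DESeq2). The neutrophil markers given beside Itgam ranged widely over the same libraries. Against PMs, 3 of 12 were lower in CD11b+ B cells and 4 of 10 in CD11b- B cells, and none was higher. Of all genes, 8.78% and 11% were called lower and 21.5% and 25.8% higher in these comparisons. Itga5, the fibronectin receptor α5, was at 10.9, 0.515 and 0.399 FPKM in PMs, CD11b- and CD11b+ B cells (log2 fold changes -2.98 and -3.10, adjusted p = 0.000249 for both). Itga9, which binds tenascin and VCAM-1, was at 6.13, 0.550 and 0.334 FPKM (-2.23, adjusted p = 0.00531, and -2.35, adjusted p = 0.00177). The calls of the low genes Itga7 in both comparisons and Itga2b in CD11b- B cells were each lost without most single libraries.

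The ligands called were mostly lower in B cells. Of 17 tested in CD11b+ B cells, 2 were higher and 8 lower than in PMs, and of 15 tested in CD11b- B cells, 2 were higher and 8 lower. The background was 21.5% higher and 8.78% lower in CD11b+ and 25.8% higher and 11% lower in CD11b- B cells, over all genes. Fibronectin (Fn1), the ligand of α4β1 and α5β1, was at 969 FPKM in PMs against 1.25 and 0.868 FPKM in CD11b+ and CD11b- B cells (-8.76 and -9.01). Thbs1, a matrix ligand of several integrins, was at 202 against 0.207 and 0.225 FPKM (-7.39 and -7.37). The adjusted p was at most 5.19e-07 for these 4 values. The median log2 fold change of the ligands was -0.30 and -1.55 in CD11b+ and CD11b- B cells, against 0.25 and 0.24 over all genes, and that of the other integrin subunits -0.25 and -0.50.

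Regulators inside the cell were called in both directions, and their lists had medians from -0.12 to 0.25. In the activation and adhesion complex list, 11 of 33 were higher and 10 lower in CD11b+ B cells than in PMs, and 12 and 10 in CD11b- B cells, against the same 21.5% and 8.78%, and 25.8% and 11%, of all genes. The parvins, which link integrins to actin through ILK, differed in direction. Parvg was at 0.728 FPKM in PMs and at 73.3 and 88.5 FPKM in CD11b+ and CD11b- B cells (5.49 and 5.77, adjusted p = 1.03e-05 and 6.19e-06), and Parvb was at 20.5 FPKM in PMs and at 0.0631 and 0.0158 FPKM in B cells (-4.30 and -4.37, adjusted p = 2.75e-05 and 2.27e-05). Rasgrp1, an exchange factor of Ras upstream of integrin activation in lymphocytes, was at 1.59 FPKM in PMs and at 42.5 and 57.6 FPKM in B cells (4.13 and 4.56, adjusted p = 5.26e-05 and 3.08e-05).

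The same shares of all genes, 21.5% higher and 8.78% lower in CD11b+ and 25.8% higher and 11% lower in CD11b- B cells, are the background of the 3 remaining lists. In the inhibition list, 5 were higher and 4 lower in each B cell group, of 14 and 15 tested. Sipa1, which turns off Rap1, was at 21.99 FPKM in PMs and at 112 and 139 FPKM in CD11b+ and CD11b- B cells (2.31 and 2.62, adjusted p = 0.000104 and 2.70e-05). Dok2, an adaptor that dampens tyrosine kinase signals, was at 98.9 FPKM in PMs and at 0.810 and 0.2998 FPKM in B cells (-5.85 and -6.27, adjusted p = 5.69e-06 and 8.00e-07). In the signalling list, 6 of 16 were higher and 5 lower in CD11b+ B cells and 7 and 5 in CD11b- B cells. Tyrobp (DAP12), an adaptor with the same kind of motif as Fcer1g, was at 3202 FPKM in PMs and at 81.5 and 50.3 FPKM in B cells (-5.26 and -5.96, adjusted p = 4.23e-06 and 2.35e-06). In the list of other adhesion and homing genes (medians 0.47 and 0.74), 7 of 17 were higher and 6 lower in CD11b+ B cells, and 8 and 6 in CD11b- B cells. Ccr7, the homing receptor for lymph nodes, was at 0.428 FPKM in PMs and at 82.6 and 125 FPKM in CD11b+ and CD11b- B cells (5.85 and 6.47, adjusted p = 2.59e-06 and 6.38e-07).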

How the data were processed

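RNA from 9 libraries, 3 per group, was analysed, and groups and replicates were taken from the sample labels. The authors made full-length cDNA libraries (SMART-seq HT), trimmed the reads (Trim Galore 0.4.4, Trimmomatic 0.36 and cutadapt 1.16 per the submitters' processing notes), mapped them to GRCm38 with STAR 2.7.2b and counted them on genes with featureCounts 1.6.1. The FPKM values that the authors deposited cover 55322 genes. The normalized signal in the second table that the authors deposited is the count over the size factor of its library, for 11063 genes selected by a p-value whose test is not given. It was used for 1 alternative only. Itgb3 is not in it. The authors used DESeq2 1.20.0. The members and the lists were chosen with earlier results of these data known.

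FPKM times exon length gave whole reads for 100% of values within 0.05 of a read, and depth was taken from these (18014658 to 35251215 reads). The reads are not counts of molecules, so limits drawn from them cover counting error only. Differences were tested with limma 3.58.1 in R 4.3.3 (two-sided, eBayes with a trend), applied to log2(FPKM + 1) of the 6 libraries compared and to genes at a mean of at least 0.05 FPKM, with Benjamini-Hochberg adjustment over all genes tested and a threshold of 0.05. Adjusted p-values in the text are limma's unless edgeR 4.0.16 (quasi-likelihood test) or DESeq2 1.42.0 is named. Both ran on the whole reads as alternatives. All 10 members were named in every comparison. In each list and comparison, up to 4 genes with the largest change among those past the threshold could be named, or the 2 with the lowest p where none passed. Itgav was named as a partner of β3. A few genes of the lists and of the Itgam neighbourhood are not reported here, and those in the marker lists were left out of the sums. Positions in the tables mostly differ from GRCm38, so positions are those of GENCODE M21 by identifier. Values are means ± SD, and log2 fold changes ± SE. The fits were first tested on simulated data. Other alternatives were other pseudocounts, filters and scalings, all 9 libraries in 1 fit, a replicate block, no immunoglobulin genes, and each library left out.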

Additional observations from a re-analysis of the deposited data

How the results depend on the processing

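Of the alternatives for the 10 genes' log2 fold changes, 510 kept direction and side of the threshold, 22 lost the call, 11 gained one and 8 changed sign. The counts of members called stayed within 1.5 times in all alternatives, at 0 between B cells, and, with each library left out, at 5 to 6 for CD11b+ and 6 to 8 for CD11b- B cells against PMs. For the 6 lists these ranges were 1 to 1, 57 to 68 and 61 to 68. The changes of sign were all in values near 0. Between B cells, Itga4 was at -0.0049 (median-ratio scaling), -0.0057 (edgeR), -0.0022 (DESeq2), -0.046 (without CD11b- replicate 2), -0.077 (without CD11b+ replicate 1) and -0.026 (replicate block by the numbers of the library labels), and Itgb2 was at 0.0086 without CD11b- replicate 3. Against PMs, Itga4 in CD11b+ B cells was at 0.0067 without PM replicate 1. Over all libraries left out in turn, these values ran from -0.077 to 0.076 for Itga4 and -0.098 to 0.0086 for Itgb2 between B cells, and from -0.32 to 0.0067 for Itga4 against PMs. The same-numbered deviations of CD11b- and CD11b+ libraries correlated at 0.284, -0.0193 and 0.206 over 12493 genes, by the numbers in the titles. The library labels carry the same number only for the first and last of these pairs, which had the highest correlations of all CD11b- and CD11b+ combinations. Crossed, CD11b- replicate 1 with CD11b+ replicate 3 gave -0.297, and CD11b- replicate 3 with CD11b+ replicate 1 gave -0.202. The labels do not say that equal numbers mark shared animals, and 2 pairs are few. Pairing was thus left undecided, and the main fits used no block. Between B cells, Itgb1 was higher in CD11b+ for each title number, with adjusted p = 0.324 under a block by title and 0.302 by library label. With the number in the titles as a replicate block, 0, 5 and 7 members were called, against 0, 6 and 8 without it. The calls missing under the block were Itgb7 in CD11b+ (adjusted p = 0.0900) and Itgb3 in CD11b- B cells against PMs (0.0741). Over all genes, 15 were called between B cells by limma and 67 by edgeR, all higher, and DESeq2 called 307 higher and 52 lower. The count was 2 with no filter, 9 with quantile normalization, 31 higher and 5 lower in 1 fit of all 9 libraries, 31 at a minimum mean of 1 FPKM, 34 higher and 3 lower with a pseudocount of 0.1, 23 higher and 2 lower with a pseudocount of 0.01, 92 higher and 2 lower on the normalized counts, 98 higher and 29 lower with the block by library label, and 3 to 40 with 1 library left out. The causes of these differences were not tested. Depth limits Itgax and Itgad most, with 12 and 13 reads in their lowest B cell groups.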
